A study of Macaca mulatta with 8 samples.

Results

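Glycine receptor subunits are the proteins that assemble into the glycine-gated chloride channel. The members are the 4 genes GLRA1 (ENSMMUG00000014704), GLRA2 (ENSMMUG00000003482), GLRA3 (ENSMMUG00000008868) and GLRB (ENSMMUG00000022901), taken by symbol from the 21748 genes of the count matrix. They were chosen with their levels in these nuclei already known, in particular in immature neurons and newly formed oligodendrocytes. Their levels are therefore given as a description, with no test.

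The material was nuclei from frozen brain of male rhesus macaques, sequenced from the 3' end in droplets (10x Genomics, v3 chemistry), where each RNA molecule is counted once through its unique molecular identifier (UMI). Of the 8 samples, 4 are controls, divided from the mixed tissue of 2 animals. The other 4 were divided from the tissue of 1 animal anaesthetised with the inhaled agent sevoflurane, at roughly 2.5 to 3%, with each session lasting 4 h. The first exposure was near postnatal day 7, and the labels give 14 and 28 days for the later ones without saying whether these are ages or intervals. The labels name no genetic change, and the age at which tissue was taken is not given in the sources used here. The tissue is given as hippocampus in the sample characteristics and as amygdala in the growth protocol. Nuclei carry a library number from 1 to 8, and no source used here ties a library to a sample. Sevoflurane was therefore not compared with control, the matrix counts as 1 sample, and no p-value was computed.

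A glycine receptor is a ring of 5 subunits around a chloride pore. The alpha subunits bind glycine and can form channels by themselves, while the beta subunit, encoded by GLRB, joins them in mixed channels and binds gephyrin, which holds the receptor at inhibitory synapses. The alpha1 subunit (GLRA1) is best known from spinal cord and brainstem, the alpha2 subunit (GLRA2) from the developing brain, and the alpha3 subunit (GLRA3) from spinal pain pathways and forebrain neurons. The amino acids glycine, taurine and beta-alanine open the channel, and sevoflurane and other volatile anaesthetics are known to enhance it. Whether chloride flow inhibits or excites a neuron depends on its chloride gradient, which is set by the transporters SLC12A5 (KCC2) and SLC12A2 (NKCC1).

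Libraries held 35806547 to 47007082 UMIs. The 54644 nuclei kept fell into 45 clusters, named from marker genes, and class names below are short for "like" that type. Libraries 1 to 4 stood apart from libraries 5 to 8: their median was 3189 to 3426 UMIs per nucleus against 5730 to 5831, and many neuron clusters came almost wholly from 1 of these library sets. No more than 32 cell barcodes were shared by any pair of libraries. Levels are UMIs per 1000000 UMIs of a class (CPM), and intervals in parentheses are exact 95% intervals that cover counting error only. The labels describe the samples as divided from 2 pools, so the spread of libraries is not read as a spread between animals. Libraries 1 and 2 also differed from libraries 3 and 4 in their mix of nuclei. Cluster 0 (oligodendrocytes) had 604 and 607 nuclei against 1695 and 1598, and cluster 6 (immature neurons) 728 and 758 against 284 and 279. What sets these libraries apart was not tested. Because 3' counts were not set per transcript length, levels are compared between classes and not between genes.

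The immature neuron class was cluster 6, with 2106 nuclei, of which 97.3% came from libraries 1 to 4. It showed DCX at 227 CPM, SOX4 at 151, CALB2 at 116 and IGFBPL1 at 45.8, and 8 of 11 immature markers reached 20 CPM. SOX11 was at 3.36 CPM and NEUROD1 at 0, and the summed level of the 11 markers was 1242 CPM against 1434 in the highest other cluster. Its 10 leading genes hold the granule neuron gene PROX1 (425 CPM) and no immature marker. The newly formed oligodendrocyte class was cluster 14, with 1272 nuclei, 93.0% from libraries 1 to 4, and 9 of its 10 markers were at 20 CPM or more, BCAS1, ENPP6 and GPR17 among its leading genes. The cycling cell class was cluster 31, with 5 of 10 markers at 20 CPM or more and none among its 10 leading genes. Its summed marker level was 186 CPM against 137 in the highest other cluster. The astrocyte class is cluster 1 alone, from libraries 1 to 4. Cluster 3, with 3195 of its 3241 nuclei from libraries 5 to 8, carried 9 astrocyte markers but stayed unnamed, since its nuclei had few UMIs and none of those markers was among its 10 leading genes.

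**Figure D1:**
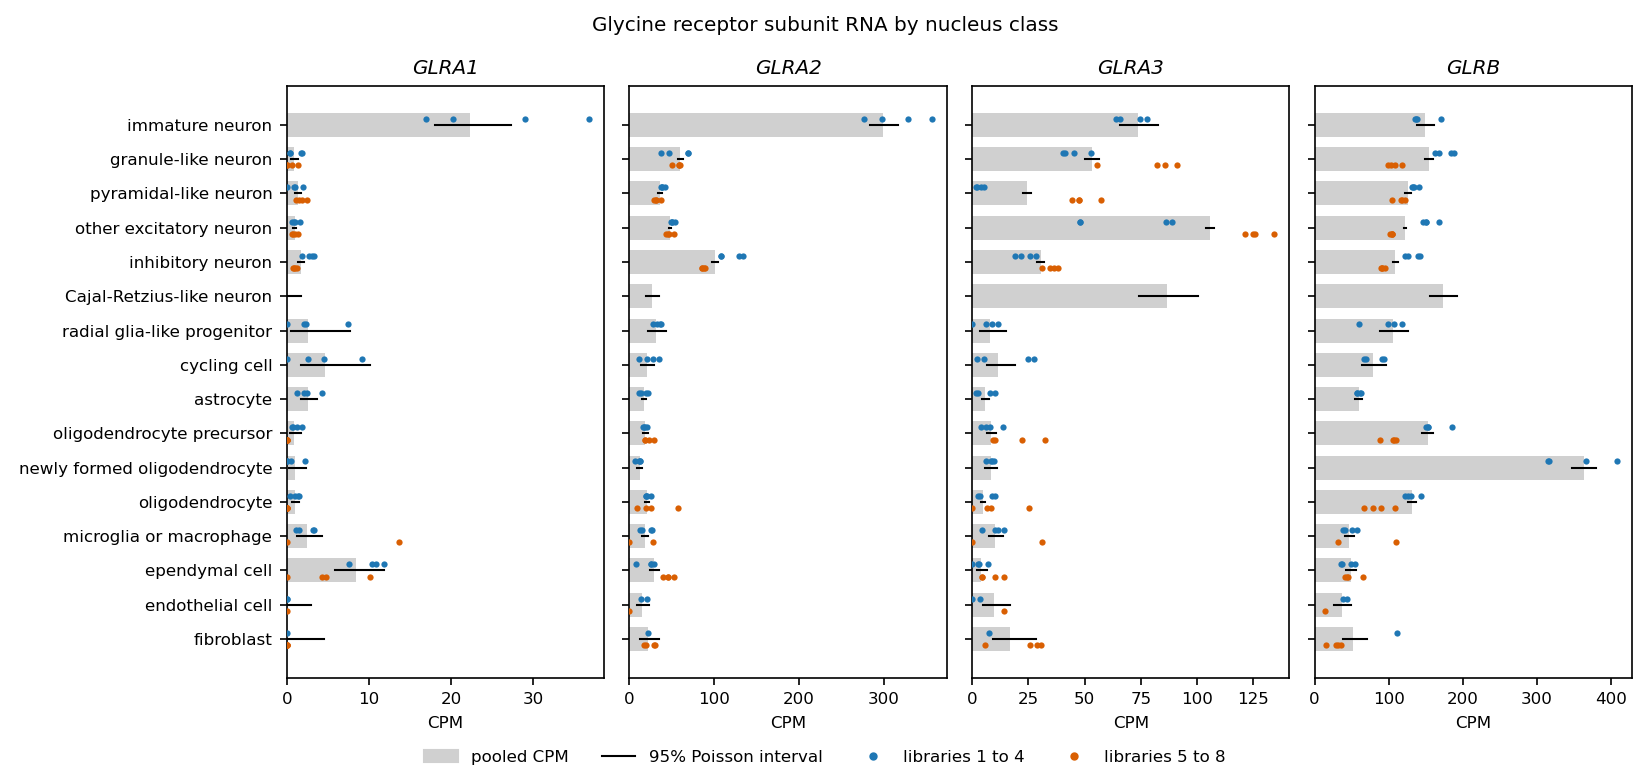
Level of each subunit (x axis, CPM, starting at 0, with a separate scale per gene) in each class of nuclei (rows). Grey bars are the pooled CPM, black lines its 95% Poisson interval, and points the libraries with at least 50 nuclei of the class, blue for libraries 1 to 4 and orange for 5 to 8. Immature neurons stand highest for GLRA1 (22.3 CPM) and GLRA2 (299.7 CPM), and newly formed oligodendrocytes for GLRB (363 CPM).

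GLRA2, the alpha2 subunit, was highest in immature neurons. In libraries 1 to 4, the only ones with at least 50 such nuclei, it stood at 277, 298, 328 and 357 CPM, and the pooled level was 299.7 CPM (283–317; 1249 UMIs). The 57 immature nuclei of libraries 5 to 8 together gave 212 CPM (123–339, 17 UMIs). Inhibitory neurons came next at 101 CPM (97.9–104), followed by granule-like neurons at 60.0 (56.8–63.3), other excitatory neurons at 48.2 (46.9–49.4) and pyramidal-like neurons at 36.2 (34.2–38.3). The library values of immature and inhibitory neurons did not overlap, nor did those of inhibitory and granule-like neurons, while those of granule-like and other excitatory neurons did. Radial glia-like progenitors, with TNC and TFAP2C among their leading genes, stood at 31.4 CPM (22.0–43.5), with library values that overlapped those of pyramidal-like neurons. All remaining named classes lay between 11.9 and 28.7 CPM, and microglia, which are not of neural origin, stood at 17.8 (14.3–22.0).

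Set against mature neurons (inhibitory and excitatory together, 57.7 CPM), immature neurons held 5.198-fold more GLRA2 (4.90–5.51), with a log2 ratio of 2.03 to 2.60 in the 4 libraries. Within libraries 1 to 4, where both classes come from the same libraries, the levels were 301 and 63.0 CPM, a 4.79-fold difference (4.50–5.09). The granule-like class of those libraries, which shares PROX1 with the immature cluster, stood at 61.2 CPM (57.4–65.1). As a share of nuclei, after thinning each nucleus to 1000 UMIs, 23.4% of 2026 immature nuclei had a GLRA2 UMI (21.6–25.4), against 6.42% of granule-like, 8.85% of inhibitory and 1.75% of microglial nuclei. Before thinning the shares were 37.8%, 28.8%, 34.8% and 2.87%, at median depths of 1847, 6654, 5542 and 1587 UMIs.

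Among mature neurons GLRA2 leaned to the inhibitory side. Libraries 1 to 8 gave 134, 129, 108.5, 107.5, 87.5, 85.2, 86.0 and 88.6 CPM in inhibitory neurons and 52.7, 53.5, 44.5, 49.0, 44.5, 43.4, 48.6 and 44.5 in excitatory neurons. All 8 inhibitory values lay above all 8 excitatory ones, and the inhibitory values were higher in libraries 1 to 4 than in 5 to 8. The pooled ratio was 2.13-fold (2.05–2.21). It lies close to the 2-fold limit used here: after TMM scaling, which shifts the median of all genes by −0.10, the log2 ratio was 0.99, and in libraries 5 to 8 alone the ratio was 1.92-fold (1.82–2.02).

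The inhibitory clusters differed among themselves. Cluster 8, led by VIP (72.5 CPM), CALB2 and SCGN, held GLRA2 at 163 CPM (154–172), with libraries 1 to 4 at 207 to 230 and libraries 5 to 8 at 116 to 137. Cluster 15, led by RELN (2993 CPM) and NDNF, stood at 137 (128–146). Both express ADARB2, a marker of interneurons from the caudal ganglionic eminence. The LHX6-positive cluster 18 was at 104 (96.5–111), cluster 40, also LHX6-positive (116 CPM), at 55.6 (46.1–66.5), and the SST cluster 12 (SST, 394 CPM) at 70.2 (65.1–75.5). The LAMP5 and LHX6 cluster 30 had 43.9 CPM (37.4–51.2), which is within the range of the excitatory neurons. A split by ADARB2 does not order them all. Cluster 33, also ADARB2-positive and led by HTR3A and CNR1, was at 65.5 (57.7–74.0) in the pool. Its libraries with at least 50 nuclei, all among libraries 5 to 8, gave 41.2 to 59.9. In libraries 1 and 2 cluster 18 had 174 and 144 CPM against 168 and 125 in cluster 15, with overlapping intervals.

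A pair of excitatory clusters reached the level of inhibitory neurons. Cluster 24, with 715 of 773 nuclei from libraries 1 to 4, held GLRA2 at 129 CPM (121–138), and cluster 17, with 1159 of 1164 nuclei from libraries 5 to 8, at 104 (97.5–110). Both express FOXP2 (584 and 425 CPM) and TLE4 (808 and 560 CPM), transcription factor genes used as markers of deep-layer cortical neurons. Libraries 1 to 4 gave 163, 129, 115 and 133 CPM in cluster 24, and libraries 5 to 8 gave 106, 99.0, 113 and 96.5 in cluster 17. The other excitatory clusters with library values ran lower, and cluster 42, another with FOXP2 (260 CPM) and TLE4 (583 CPM), had 90.8 CPM (74.0–110) from 125 nuclei. FOXP2 alone does not mark these clusters: clusters 19 and 28 have FOXP2 at 391 and 1006 CPM but TLE4 at 19.5 and 27.1, and they held GLRA2 at 33.2 (29.5–37.2) and 19.99 (16.1–24.5).

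**Figure D2:**
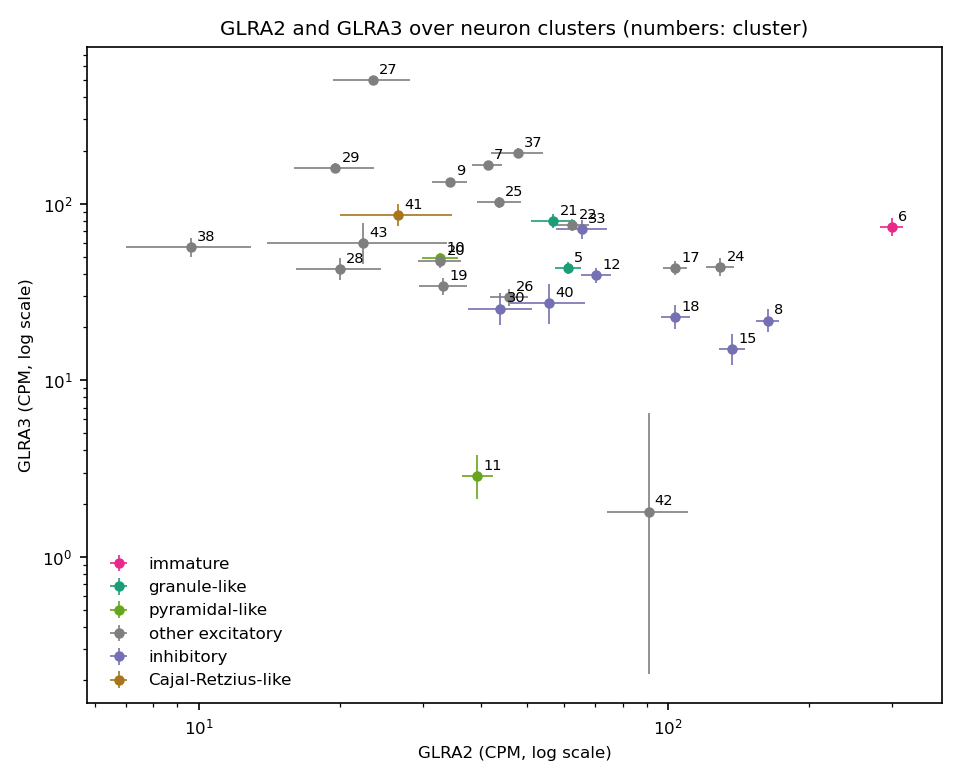
Level of GLRA3 (y axis, CPM, log scale) against GLRA2 (x axis, CPM, log scale) in each neuron cluster. Each point is 1 cluster with its number, bars are 95% Poisson intervals, and colours give the class. Cluster 6 (immature) lies farthest to the right at 299.7 CPM of GLRA2, cluster 27 (excitatory) highest at 503 CPM of GLRA3, and pyramidal-like clusters 10 and 11 lie far apart in GLRA3 at 49.2 and 2.85 CPM.

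GLRA1, the alpha1 subunit, was sparse in all classes and highest in immature neurons. Its level in immature neurons was 17, 20.2, 28.98 and 36.8 CPM in libraries 1 to 4, pooled at 22.3 CPM (18.01–27.3) from 93 UMIs. Mature neurons had 1.15 CPM (1.02–1.30), so immature neurons stood 19.3-fold higher (15.1–24.6), or 16.96-fold (12.8–22.4) within libraries 1 to 4. Ependymal cells, the ciliated lining of the ventricles, came second at 8.47 CPM (5.83–11.9; 33 UMIs), and their library values did not overlap those of immature neurons. Among classes with at least 4 libraries of 50 nuclei, all later neighbours in the order overlapped. Levels ran from 4.65 CPM in cycling cells down to 0 in endothelial cells and fibroblasts, where counting error allows up to 2.93 and 4.47 CPM, and Cajal-Retzius-like neurons had no UMI either. Microglia stood at 2.43 CPM, and no mature neuron class was above that level. Inhibitory cluster 8, the one highest in GLRA2 among inhibitory clusters, held 3.69 CPM (2.49–5.27; 30 UMIs), and the small excitatory cluster 43, of 99 nuclei, 9.14 (4.18–17.4; 9 UMIs). In nuclei thinned to 1000 UMIs, 2.12% of immature nuclei (1.54–2.85) and 0.149% of microglia (0.0405–0.380) had a GLRA1 UMI, and without thinning 3.99% and 0.405%.

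GLRA3, the alpha3 subunit, was higher in excitatory than in inhibitory neurons taken as a whole, with wide differences between excitatory clusters. In the pool of all libraries other excitatory neurons stood highest at 106 CPM (104–108), then immature neurons at 73.9 (65.9–82.6), granule-like neurons at 53.1 (50.1–56.3), inhibitory neurons at 30.4 (28.8–32.1) and pyramidal-like neurons at 24.2 (22.6–26.0). The 188 Cajal-Retzius-like nuclei (cluster 41), named for an early-born RELN-positive type, had 86.5 CPM (74.3–100.2). Their summed marker level was 919 CPM against 3122 in the highest other cluster, and RELN was also a leading gene of inhibitory clusters 15 and 33. Only granule-like and inhibitory neurons, among neighbours in the pooled order, had library values that did not overlap. The order differed by library set. In libraries 1 to 4 other excitatory neurons had 69.8 CPM (67.4–72.3), immature neurons 73.2 (65.1–81.9) and Cajal-Retzius-like neurons 85.0 (71.6–100). Pyramidal-like neurons lay below inhibitory neurons there, at 2.86 against 23.8 CPM, but above them in libraries 5 to 8, at 49.1 against 35.0. Glial, ependymal and vascular classes had 4.11 to 16.96 CPM, with microglia at 10.3 (7.70–13.6). Excitatory neurons as a whole held 63.6, 62.9, 33.1, 33.2, 111, 111, 118 and 107 CPM in libraries 1 to 8, and inhibitory neurons 21.8, 25.8, 19.3, 28.4, 38.0, 31.2, 36.4 and 34.4. Every library had more in excitatory neurons, 2.77-fold in the pool (2.61–2.93). The size varied: the log2 ratio of inhibitory over excitatory was −1.83 to −1.54 in libraries 5 to 8, −1.54 and −1.28 in libraries 1 and 2, and −0.78 and −0.23 in libraries 3 and 4. Nuclei outside the neurons moved the same way between the library sets, with GLRA3 at 6.13 CPM (5.48–6.82) in libraries 1 to 4 and 16.2 (12.5–20.6) in libraries 5 to 8. The part of this in the neuronal values was not tested.

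The level of GLRA3 depended on the excitatory cluster. Cluster 27, with all 673 nuclei from libraries 5 to 8, stood at 488, 483, 500 and 540 CPM in them and at 503 pooled (483–523), and GLRA3 was among its 10 leading genes beside ADCYAP1 and TSHZ2. Cluster 37 followed at 194 CPM (182–206), cluster 7 at 166 (160–172), cluster 29 at 159 (149–170), cluster 9 at 133 (128–139) and cluster 25 at 102 (95.2–110). All of these except cluster 9 came almost wholly from libraries 5 to 8, where excitatory neurons as a class were higher in GLRA3. The clusters are part of that class and add to its level. Cluster 27 alone gave 2379 of the 11099 GLRA3 UMIs of excitatory neurons in libraries 5 to 8. Clusters 7 and 9 share leading genes (SPON2, PIK3C2G and ARHGAP10), the first from libraries 5 to 8 and the second from libraries 1 to 4. Cluster 7 had 152 to 175 CPM, while cluster 9 had 165 and 154 in libraries 1 and 2 and 73.2 and 71.4 in libraries 3 and 4. Cluster 9 thus matched cluster 7 in libraries 1 and 2 and lay below it in libraries 3 and 4.

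The pyramidal-like class was split by library set. Its clusters 10 and 11 both carry the CA1 marker FIBCD1 (78.0 and 96.7 CPM). Cluster 10, from libraries 5 to 8, held GLRA3 at 47.6, 44.8, 47.4 and 57.6 CPM. Cluster 11, from libraries 1 to 4, held 5.31, 3.71, 2.24 and 1.65, which is below the level of microglia. The clusters also differed in other genes, such as TLE4 (22.5 against 134 CPM), and whether they hold the same neurons was not tested. The granule-like class was split too, into cluster 5 (2123 of 2139 nuclei from libraries 1 to 4) and cluster 21 (956 of 964 from libraries 5 to 8). Both have C1QL3 among their leading genes, but only cluster 5 has PROX1, and whether they hold the same neurons was not tested. Granule-like neurons differed less between the sets, at 43.3 CPM (40.1–46.6) and 79.4 (72.4–86.9). As a result the ratio of granule-like to pyramidal-like neurons was 2.19-fold in the pool (2.00–2.40), 15.1-fold in libraries 1 to 4 (11.4–20.5) and 1.62-fold in libraries 5 to 8 (1.44–1.82). Library 8 alone had the opposite sign, with a log2 ratio of −0.04 against 0.85 to 4.998 in the other libraries, and without it the pooled log2 ratio was 1.40.

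GLRB, the beta subunit, was found in all classes and was highest in newly formed oligodendrocytes. This stage, between the precursor and the myelinating cell, is marked by ENPP6 and BCAS1. Libraries 1 to 4 gave 317, 315, 408 and 366 CPM there, pooled with the rest at 363 CPM (347–380; 1861 UMIs). The 89 nuclei of libraries 5 to 8 gave 241 CPM (186–307). Precursors in libraries 1 to 8 stood at 153, 186, 153, 150.4, 106, 107, 109 and 88.6 CPM, and oligodendrocytes at 122, 129.6, 126, 144, 109, 78.7, 89.7 and 66.3. The values of newly formed oligodendrocytes lay above all of these, with no overlap. The class held 2.39-fold more GLRB than precursors (2.23–2.55; log2 0.76 to 1.41 by library) and 2.77-fold more than oligodendrocytes (2.60–2.94; log2 1.28 to 1.70 by library). Within libraries 1 to 4 the ratios were 2.34 (2.19–2.51) and 2.79 (2.63–2.97), and after TMM scaling the log2 ratios were 1.52 and 1.58.

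Within oligodendrocytes, cluster 13, led by OPALIN and MBP, held GLRB at 171 CPM (161–182), and the larger cluster 0, led by ANLN and MOG, at 113 (108–119). In libraries 1 to 4, cluster 13 had 128 to 196 CPM and cluster 0 had 106 to 124, so the clusters did not overlap. After thinning to 1000 UMIs, 29.3% of newly formed oligodendrocytes (26.8–31.9) had a GLRB UMI, against 13.4% of precursors, 11.1% of oligodendrocytes and 4.94% of microglia. The unthinned shares were 62.3%, 32.2%, 29.4% and 7.13%. The alpha subunits did not follow GLRB there. Newly formed oligodendrocytes had GLRA2 at 11.9 CPM (9.11–15.3), GLRA3 at 8.2 (5.91–11.1) and GLRA1 at 0.976 (0.317–2.28). Each of these is at or below the level in microglia. Microglia had fewer UMIs per nucleus (median 1586.5 against 3714), and background from RNA outside the nuclei was not measured. The comparison therefore cannot show whether alpha subunit RNA was present in the class.

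**Figure D3:**
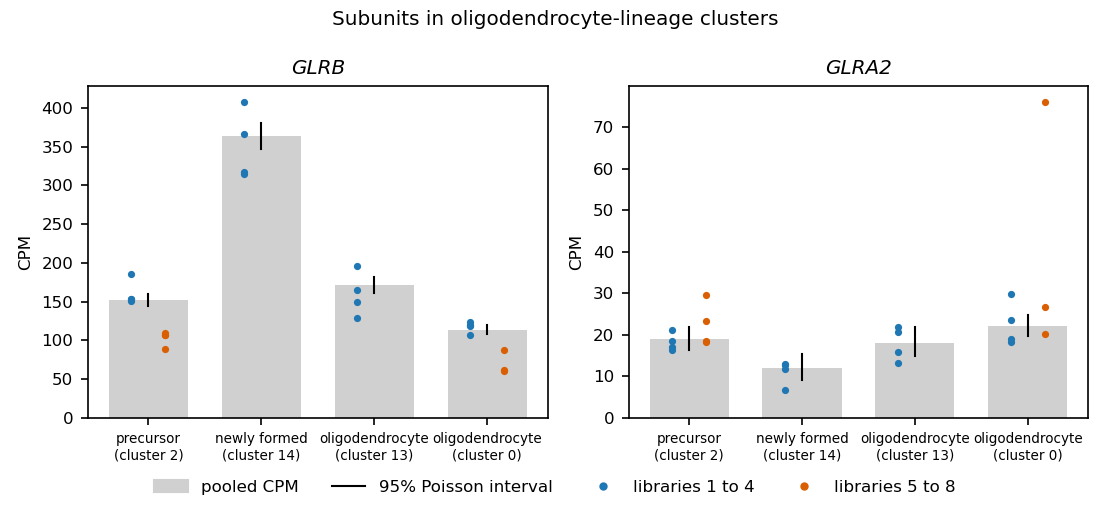
Level (y axis, CPM, from 0) of GLRB (left) and GLRA2 (right) in the clusters of the oligodendrocyte lineage. Bars are pooled CPM, black lines 95% Poisson intervals and points libraries with at least 50 nuclei of the cluster (blue 1 to 4, orange 5 to 8). GLRB is highest in newly formed oligodendrocytes at 363 CPM and lowest in cluster 0 at 113 CPM, while GLRA2 is lowest in newly formed oligodendrocytes at 11.9 CPM.

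Outside the oligodendrocyte lineage GLRB varied less than the alpha subunits. Cajal-Retzius-like neurons had 173 CPM (156–192), granule-like neurons 154 (149–159), immature neurons 149 (138–161), pyramidal-like neurons 126 (122–129.8), other excitatory neurons 122 (120.0–124) and inhibitory neurons 109 (106–112). Radial glia-like progenitors held 106 CPM (87.6–126), cycling cells 79.0 (64.4–95.9) and astrocytes 59.4 (54.8–64.2). Fibroblasts, ependymal cells, microglia and endothelial cells had 36.5 to 52.1 CPM. Neighbours in this order overlapped between libraries except below newly formed oligodendrocytes and between cycling cells and astrocytes. Excitatory and inhibitory neurons were higher in libraries 1 to 4 than in libraries 5 to 8, at 147 to 162 against 104 to 107 CPM and at 121 to 143 against 89.5 to 94.98. Intervals of the library sets overlapped for immature neurons, at 150 CPM (138–162) and 125 (59.7–229; 10 UMIs). They also overlapped for Cajal-Retzius-like neurons, at 182 (162–204) and 136 (102–177). Nuclei outside the neurons had 128 and 77.4 CPM in these library sets.

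Across the 6 comparisons of classes, a gene was counted as higher in a class if it reached 10 CPM there, differed at least 2-fold in the pool and differed the same way in every library with at least 50 nuclei of both classes. Of the 3 members measured in neurons against non-neuronal nuclei, GLRA2 and GLRA3 were higher in neurons. The same held for 11.4% of 10409 genes, and for 19.0% the non-neuronal level was higher. GLRA2 stood at 61.8 against 19.4 CPM (3.19-fold, 3.00–3.39) and GLRA3 at 73.9 against 6.84 (10.8-fold, 9.79–11.98). The pooled log2 ratio of GLRA3, 3.44, lies above all 8 libraries (2.20 to 3.18), and the ratio was 7.58-fold (6.78–8.51) within libraries 1 to 4 and 5.94-fold (4.67–7.69) within libraries 5 to 8. Pooled GLRB was at 124 CPM in neurons and at 125 outside them, yet within each of the 8 libraries it was higher in neurons, by 0.08 to 0.53 in log2. The library sets hold different mixtures of classes, and within libraries 1 to 4 the levels were 150.02 and 128 CPM and within libraries 5 to 8 103 and 77.4. TMM scaling shifts the median of all genes by 0.23 in log2 in this comparison and gives 1.91, 3.67 and 0.23 for GLRA2, GLRA3 and GLRB. It also moves the balance of all calls, from 1187 genes on the neuronal side and 1977 on the other to 1577 and 1492.

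Of 3 members measured in inhibitory against excitatory neurons, GLRA2 was higher in the former, as were 6.43% of 9462 genes, and GLRA3 in the latter, as were 6.17%. In immature against mature neurons all 4 members were measured and 2 were higher in immature neurons, GLRA1 and GLRA2. Of 10117 genes, 16.2% were higher in immature and 9.80% in mature neurons. GLRA3 (73.9 against 73.8 CPM) and GLRB (149 against 123 CPM) were not called, and within libraries 1 to 4 these were 73.2 against 44.7 and 149.8 against 149.5 CPM. Their pooled log2 ratios of 0.00 and 0.28 became −0.30 and −0.02 with TMM scaling. TMM scaling shifts all genes by −0.30 here and leaves log2 ratios of 3.98 for GLRA1 and 2.08 for GLRA2. With it, 950 genes were higher in immature and 1528 in mature neurons, against 1640 and 991 by CPM.

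Only GLRB and GLRA2 were measured in the comparisons within the oligodendrocyte lineage, and GLRB was higher in newly formed oligodendrocytes in both. Against precursors, 5.70% of 9370 genes were higher in newly formed oligodendrocytes and 13.7% in precursors. Against oligodendrocytes, 9.34% of 9059 genes were higher in newly formed cells and 11.6% in oligodendrocytes. Scaling by TMM changed the balance against precursors from 534 and 1283 genes to 735 and 834, with a shift of all genes by 0.27, and the shift against oligodendrocytes was 0.11. In granule-like against pyramidal-like neurons, where 5.79% and 5.66% of 9270 genes were called in the 2 directions, none of the 3 measured members was called. GLRA2 stood at 60.0 and 36.2 CPM in the pool (1.66-fold, 1.53–1.79), with a log2 ratio of −0.02 in library 3, and GLRA3 ran the other way in library 8. GLRB was at 154 and 126 CPM in the pool (1.22-fold, 1.17–1.28), but its direction differed between library sets. It stood at 172 and 136 CPM in libraries 1 to 4 and at 107 and 115 in libraries 5 to 8. Its log2 ratio was −0.18, −0.16 and −0.25 in libraries 6, 7 and 8.

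**Figure D4:**
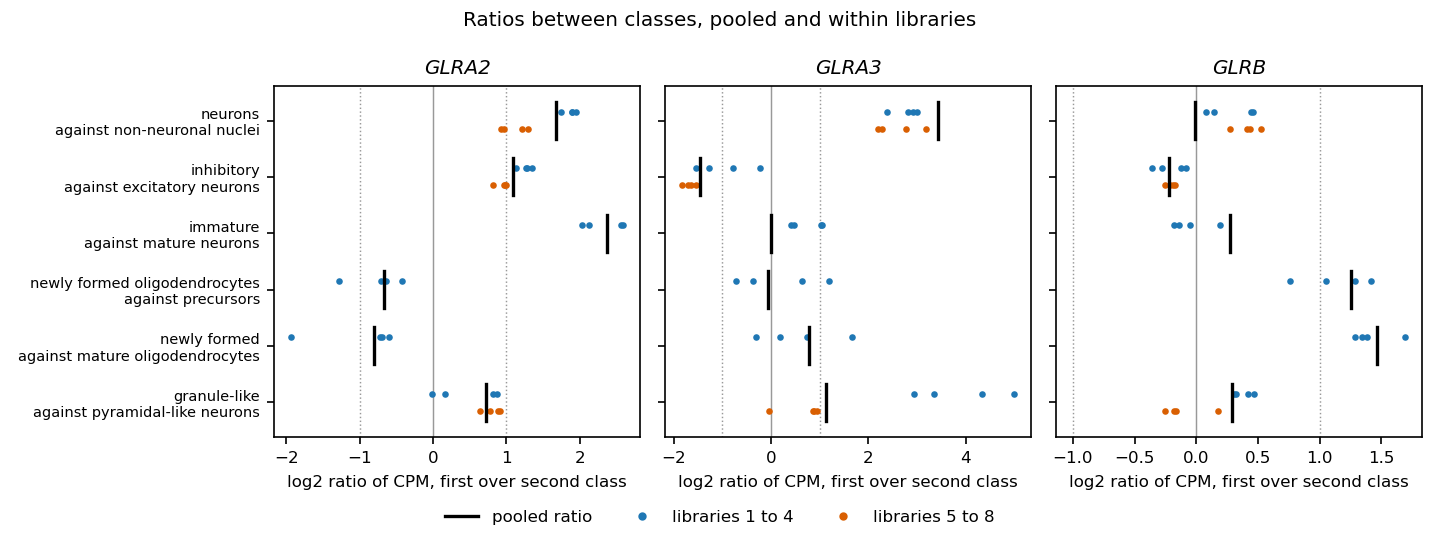
Log2 ratio of CPM between classes (x axis, first over second class) for GLRA2, GLRA3 and GLRB in the 6 comparisons (rows). Black ticks are pooled ratios, points libraries (blue 1 to 4, orange 5 to 8), and dotted lines mark a 2-fold ratio. For GLRB in neurons against non-neuronal nuclei the pooled ratio lies at −0.01, to the left of all 8 libraries (0.08 to 0.53).

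The other genes of glycine signalling were taken from a list of 22, grouped by role, of which 19 reached 10 CPM in a class. Of that list, 4 of 15 measured genes were called in neurons against non-neuronal nuclei (2 in each direction), beside 3164 of 10409 among all genes. The count was 1 of 15 in inhibitory against excitatory neurons (1192 of 9462 among all genes) and 3 of 15 in immature against mature neurons (2631 of 10117). In newly formed oligodendrocytes it was 2 of 14 against precursors (1817 of 9370) and 5 of 14 against oligodendrocytes (1894 of 9059), and in granule-like against pyramidal-like neurons 2 of 15 (1062 of 9270). The list's median log2 ratio of neurons over non-neuronal nuclei was −0.32, beside −0.24 for all genes measured, and for immature over mature neurons 0.02 beside 0.25. For inhibitory over excitatory neurons it was 0.18 beside 0.11. In newly formed oligodendrocytes it was −0.13 over precursors, beside −0.26, and −0.18 over oligodendrocytes, beside −0.16, and for granule-like over pyramidal-like neurons −0.22 beside 0.03.

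Synaptic anchors were broadly present. GPHN, which encodes the gephyrin scaffold that binds GLRB, ranged from 371 CPM in microglia to 1452 in granule-like neurons, and newly formed oligodendrocytes had 1017, close to precursors (1055) and oligodendrocytes (951). GPHN was called in no comparison. NLGN2, the neuroligin of inhibitory synapses, stood at 38.5 CPM in newly formed oligodendrocytes, 38.8 in precursors and 16.8 in oligodendrocytes, a 2.30-fold difference from the latter (1.91–2.75). The alpha4 subunit gene GLRA4 did not reach 10 CPM, its highest level being 2.79 in other excitatory neurons.

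Of the chloride transporters, SLC12A5 but not SLC12A2 was called between immature and mature neurons. SLC12A5, the chloride exporter KCC2, was at 18.4, 15.2, 17.4 and 15.5 CPM in immature neurons of libraries 1 to 4 and at 52.6, 52.2, 55.2 and 55.1 in their mature neurons. The groups did not overlap, and pooled over all libraries mature neurons held 3.89-fold more (3.07–5.01). SLC12A2, the chloride importer NKCC1, stood at 49.0 CPM in immature and 67.6 in mature neurons and was not called. In libraries 1 to 4 it was also lower in immature neurons, at 34.9 to 56.0 CPM against 76.1 to 79.7 in mature neurons, with no overlap. In the oligodendrocyte lineage SLC12A2 was 3.04-fold higher in oligodendrocytes than in newly formed cells (2.72–3.41; 203 against 66.8 CPM).

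Among the transporters of glycine and taurine, SLC6A9 alone was called in both comparisons within the oligodendrocyte lineage. SLC6A9, the glycine transporter GlyT1, was at 0, 0, 9.54 and 8.69 CPM in newly formed oligodendrocytes of libraries 1 to 4 and at 93.6, 96.6, 98.2 and 95.7 in oligodendrocytes. Pooled, oligodendrocytes held 13.6-fold more (9.80–19.3) and precursors 2.46-fold more (1.72–3.61) than newly formed cells, the stage at which GLRB was highest. Astrocytes had SLC6A9 at 2.84 CPM and cycling cells at 62.8. In immature neurons it was at 19.4 CPM, 2.39-fold above mature neurons (1.89–2.98). The neuronal glycine transporter GlyT2, SLC6A5, did not reach 10 CPM, and was highest in immature neurons at 5.52. SLC6A6, the taurine transporter, was 2.19-fold higher in neurons than in non-neuronal nuclei in the pool (2.09–2.30), with library log2 ratios from 0.02 to 1.17. Within libraries 5 to 8 it was 1.27-fold higher (1.12–1.44) and not called. It was at 12.9 CPM in precursors and 12.3 in newly formed oligodendrocytes, and 2.12-fold higher in oligodendrocytes than in newly formed cells (1.63–2.80). Its highest levels were in endothelial cells at 189 CPM and microglia at 174. SLC32A1, which loads GABA and glycine into vesicles, was 17.1-fold higher in inhibitory than in excitatory neurons (14.7–20.01). SLC7A10, a transporter of small neutral amino acids including glycine, peaked in radial glia-like progenitors at 40.2 CPM and astrocytes at 31.1.

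Of the genes of glycine synthesis and cleavage, GLDC was called in 4 comparisons, 1 of them only in the pool of both library sets, and PSAT1 in 2. GLDC, the decarboxylase of the glycine cleavage system, was at 67.6 CPM in precursors, 25.2 in newly formed oligodendrocytes and 5.03 in oligodendrocytes, which are steps of 2.68-fold (2.22–3.26) and 5.005-fold (3.81–6.6). In immature against mature neurons the pooled ratio was 2.53-fold (2.19–2.91), but each library was below 2-fold (log2 0.39 to 0.89), and within libraries 1 to 4 the levels were 48.9 and 28.1 CPM, 1.74-fold (1.499–2.01), which is no call. GLDC was also 3.21-fold higher in pyramidal-like than in granule-like neurons (2.84–3.62). PSAT1, an enzyme of serine synthesis, was 4.60-fold higher in non-neuronal nuclei than in neurons (4.38–4.82) and 3.09-fold higher in pyramidal-like than in granule-like neurons (2.66–3.597). The others in this group that reached 10 CPM (SHMT1, PHGDH, PSPH, AMT, GCSH and DLD) were called in no comparison, and neither were the taurine synthesis genes CSAD and CDO1. PHGDH and CDO1 were below 10 CPM in neurons, non-neuronal nuclei and immature neurons, so the rule could not call them there. PHGDH stood at 9.71 CPM outside neurons against 1.04 in them (9.32-fold, 7.99–10.9). In immature neurons it had 7.92 CPM against 0.922 in mature ones (8.59-fold, 5.76–12.5). CDO1 stood at 6.71 CPM in neurons against 3.25 outside them (2.06-fold, 1.77–2.41). CSAD was highest in oligodendrocytes at 75.2 CPM, and SHMT2 did not reach 10 CPM.

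**Figure D5:**
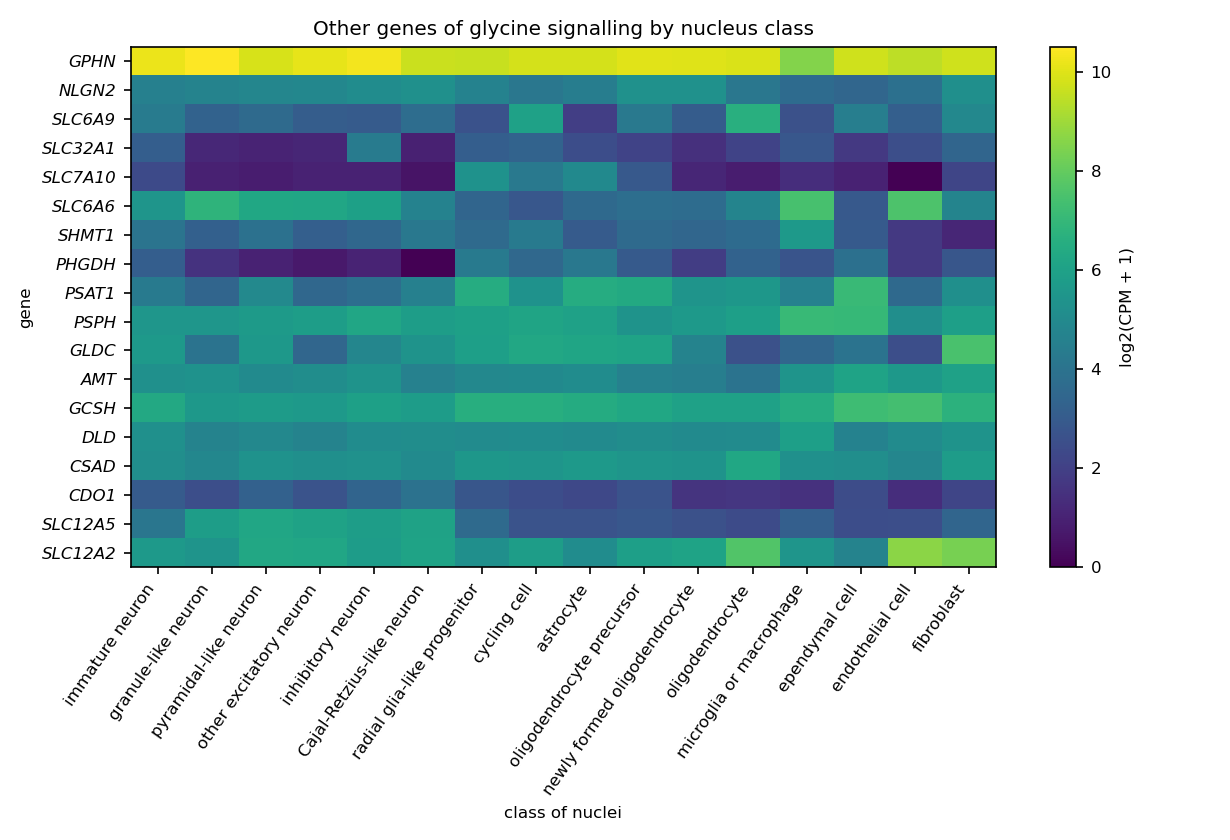
Level of other glycine signalling genes that reached 10 CPM and are reported here (rows) in each class of nuclei (columns), as log2(CPM + 1) in colour. SLC12A5 is lower in immature neurons (16.6 CPM) than in the other neuron classes (56.7 to 73.4 CPM), and SLC6A9 is highest in oligodendrocytes (98.0 CPM).

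The patterns of the 4 members over the 45 clusters, as log2(CPM + 1), had little in common. Pearson's r was 0.29 for GLRA1 with GLRA2, 0.34 for GLRA2 with GLRB, 0.26 for GLRA3 with GLRB, 0.21 for GLRA2 with GLRA3, 0.01 for GLRA1 with GLRB and −0.11 for GLRA1 with GLRA3. Clusters share libraries and depth, so these are descriptions. Among 13361 genes, those most like GLRB were NDRG3 (r = 0.83), KIF21A (0.83), GRIA2 (0.82), AKAP6 (0.76) and ENSMMUG00000062305 (0.76). Those most like GLRA3 were CRHR1 (0.86), CDH12 (0.80), ENSMMUG00000017266 (0.79), CDH22 (0.78) and PDE1B (0.78). GLRA2 was most like NUBP1 (0.73), CLVS1 (0.71), GALNTL6 (0.71), ANKRD62 (0.69) and PODXL2 (0.68). For GLRA1, with few counts, they were BIK (0.70), ENSMMUG00000049560 (0.69), MRPL52 (0.65), TM9SF1 (0.64) and ZNF296 (0.63).

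Within a class, nuclei with an alpha subunit UMI and those without had GLRB shares with overlapping intervals once depth was made equal. Among immature nuclei thinned to 1000 UMIs, 12.4% of the 475 with GLRA2 had a GLRB UMI (9.59–15.7), against 13.3% of the 1551 without (11.6–15.1). Among inhibitory neurons these shares were 9.82% (7.60–12.4) and 9.24% (8.54–9.98). For GLRA3 in other excitatory neurons they were 10.4% of 1236 (8.71–12.2) and 11.8% of 11730 (11.2–12.4). Thinned to 2000 UMIs, GLRA3-positive immature nuclei had GLRB in 18.1% of 105 (11.3–26.8), against 26.6% of the 785 others (23.6–29.9). At full depth, the nuclei with GLRA2 had more often a GLRB UMI in inhibitory neurons, 47.9% (45.9–49.9) against 39.4% (38.0–40.9). Sparse counts of this kind do not show whether the subunits are made in the same nuclei.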

How the data were processed

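Per the file headers, the deposited matrix of UMI counts (genes by nuclei) was written by Cell Ranger, software version 3.1.0. CASAVA 1.8 and Seurat are also listed in the submitters' processing notes. No coordinates are printed, as the genome build is not given in the sources used here. The members, gene lists and comparisons were chosen with earlier results of these data known.

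A minimum of 500 UMIs and 300 genes left 58220 of 59749 nuclei, and 3576 doublet-like nuclei were removed (4.18% to 7.75% per library). Clusters came from 2000 variable genes, without the members and listed genes, 30 principal components and the Leiden method at resolution 1.0 (leidenalg 0.10.2). The rule for naming clusters was settled after the data were seen: at least 3 markers on, with a lead over the next type. Of the 4 unnamed clusters, 2 had few UMIs and no own marker among the leading genes, 1 had no lead and 1 a high doublet score. Of 194 markers of 19 types, 181 were in the matrix.

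UMIs were summed per class and given as CPM. Exact intervals (scipy 1.17.1) were Poisson for levels, Clopper-Pearson for shares and binomial on the summed UMIs for ratios. Named were the members, the listed genes at 10 CPM or more in a class, of which 1 is not reported here, and the 5 genes most like each member. The calling code was tested on simulated data. Alternatives included TMM scaling (edgeR 4.0.16), other clusterings and thresholds, and leaving out libraries.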

Additional observations from a re-analysis of the deposited data

Results flagged for a closer look

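Values of single libraries stood far from the other libraries of their class in 5 of 54 sets of library values, where chance gives about 1 in 20. In library 1, the log2 ratio of GLRA2 in newly formed against mature oligodendrocytes was −1.93, against −0.72 to −0.60 in the other 3 libraries. That ratio rests on 4 GLRA2 UMIs in newly formed oligodendrocytes of library 1 (6.67 CPM, 1.82–17.1). GLRA2 in oligodendrocytes was 57.1 CPM in library 7, against 8.39 to 25.5 in the others. Few UMIs stand behind it: cluster 0 had 54 nuclei and 7 GLRA2 UMIs in library 7 (76.1 CPM, 30.6–157). GLRB was 111 CPM in fibroblasts of library 1 (15.3 to 34.9 in the other libraries), 171 CPM in immature neurons of library 2 (136 to 138) and 109 CPM in microglia of library 7 (31.1 to 56.9). Fibroblasts of libraries 1 to 4 together held 114 CPM of GLRB (74.3–167) and those of libraries 5 to 8 held 28.5 (16.6–45.6), with fewer than 50 nuclei in each of libraries 2 to 4. Whether the flagged values differ beyond counting error, and what sets these libraries apart, was not tested.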

How the results depend on the processing

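No paired analysis was possible because no library is tied to a sample and the matrix carries no replicate number. Of 516 recomputed log2 ratios of members, 503 kept the same side of the calling rule and none of the called ones changed sign. The count of members called in granule-like against pyramidal-like neurons went from 0 to 1 (GLRA3) at resolution 2.0, with seed 2, and in libraries 1 to 4 alone, and was 0 to 1 when 1 library was left out. In inhibitory against excitatory neurons it went from 2 to 1 with TMM scaling and in libraries 5 to 8 alone, and to 0 at 3-fold. In newly formed against mature oligodendrocytes it went from 1 to 2 (GLRA2 added) with libraries weighted equally and at 1.5-fold, and to 0 at 3-fold. Against precursors it went from 1 to 2 at 1.5-fold and to 0 at 3-fold. Counts over all genes moved at other thresholds because the threshold sets them. At 1.5-fold they were 2323 for inhibitory against excitatory neurons (main 1192), 4558 for immature against mature neurons (2631), 3251 against precursors (1817), 3326 against oligodendrocytes (1894) and 1974 for granule-like against pyramidal-like neurons (1062). At 3-fold they were 593, 1201, 818, 1014 and 552 in the same order, and 1902 for neurons against non-neuronal nuclei (3164). The limits to library sets and the unnamed cluster counted as astrocytes were chosen after seeing the data. GLRA1 rests on few UMIs outside immature neurons, and the immature and newly formed oligodendrocyte classes on libraries 1 to 4.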

Other observations

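The 4 unnamed clusters belong to no comparison. Cluster 23, with few UMIs per nucleus (median 1015) and TTR and CHGA among its leading genes, had GLRB at 206 CPM (180.5–235), GLRA2 at 47.3 (35.3–62.0) and GLRA3 at 34.6 (24.5–47.4), and no GLRA1 UMI. Cluster 3, which carries astrocyte markers and comes from libraries 5 to 8, had GLRB at 48.5 CPM (43.2–54.3) and GLRA2 at 15.95 (12.97–19.4), beside 59.4 and 17.05 in the astrocyte class of libraries 1 to 4. GLRA3 was at 20.3 CPM (16.9–24.2) in cluster 3 and at 5.78 (4.42–7.42) in the astrocyte class.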
